A study of Mus musculus with 9 samples.

Results

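The proteasome genes of mouse liver were compared between 5 arrays of mice given a high-fat diet (HFD) and 4 arrays of control mice. Members were all genes whose symbol in the platform annotation starts with Psma, Psmb, Psmc, Psmd, Psme, Psmf or Psmg followed by a digit, read from probe sets paired with a single symbol. This gave 49 of the 17514 genes tested and 103 of the 32801 probe sets with 1 symbol. Of them 47 were placed in classes of subunits, regulators or assembly chaperones. Psmc3ip, a meiotic recombination factor, matches by name alone. Psme3ip1, named as a partner of Psme3, was in none of the classes, and both are given apart. Psme2, the partner of Psme1 in the immunoproteasome, has no probe set of its own in the annotation, so that 4 of the 5 immunoproteasome genes were measured.

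Mice of the HFD group ate a diet with 21% fat that supplied 42% of calories as fat. Control mice carry only the label control, all mice had been on chow until the study, and the strain in both groups was c57Bl/6. Liver total RNA was hybridised to Affymetrix arrays, and the comparison asks which transcripts differed with the diet. Sex, age, time on the diet and batch are not among the labels. Nor do they state whether the arrays come from separate animals, and p-values therefore measure the spread among these arrays, which could be technical.

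The proteasome is the main protease of the cytosol and nucleus, and degrades proteins tagged with ubiquitin. Its core is a barrel of stacked rings, with outer alpha rings that gate the entry and inner beta rings whose subunits Psmb5, Psmb6 and Psmb7 carry the proteolytic sites. A cap of ATPases (Psmc) and other subunits (Psmd) recognises ubiquitin, unfolds the substrate and feeds it into the core. Under interferon gamma, and at all times in many leukocytes, Psmb8, Psmb9 and Psmb10 replace the catalytic subunits to form the immunoproteasome, which favours peptides that fit MHC class I, and Psme1 and Psme2 form a cap without ATPases that opens the core. In liver the proteasome turns over metabolic enzymes, apolipoproteins and damaged proteins.

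Each value is a log2 distance from the probe set's own baseline, so that a gene is compared between arrays and never with another gene's level, and the presence of liver markers cannot be read as a level. Differences are HFD minus control on that log2 scale with the standard error (SE) of the limma fit, and a gene is said to have risen or fallen where its p, adjusted over all 17514 genes by Benjamini-Hochberg, was under 0.05. The number of arrays limits the precision. For the median member the 95% interval reached 0.29 to either side of the difference. RNA of whole liver was measured, so that fewer cells of a type and less RNA per cell cannot be told apart.

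HFD replicates 3 and 5 stood apart from the other 7 arrays. The control probe sets at the ends of the beta-actin transcript (Actb) differed, 3′ minus 5′, by 0.77 in HFD replicate 3 and 1.12 in HFD replicate 5, against -0.45 to 0.20 in the other arrays. For Gapdh, which encodes a glycolytic enzyme, the same difference was 0.41 and 0.74 in these arrays, against -0.28 to -0.05 in the others. The SD over all genes was 0.398 in HFD replicate 5 and 0.313 in HFD replicate 3, and 0.245 to 0.282 in the others. Such differences between transcript ends are read as a sign of RNA quality, and their part in the values of the proteasome genes was not tested. Results are therefore also given without both arrays, a choice made after seeing the data.

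1 of the 49 members passed the threshold. Psmf1, which encodes an inhibitor of the core known as PI31, rose, and no member fell. Over all genes 3.37% rose and 1.87% fell, together 5.24%. Unadjusted p-values under 0.05 were found for 4 members, Psmf1, Psmb10, Psme1 and Psmd1, and for 19.1% of all genes (10.3% higher and 8.78% lower). Groups without any overlap were seen in 3 members (9.82% of all genes), higher in the HFD group for Psmf1 (5.62% of all genes) and lower for Psmb10 and Psme1 (4.2% of all genes). The median difference of the members was -0.08 and 31 of 49 lay below 0. Over all genes the median was -0.02, and 53.8% lay below 0. Without HFD replicates 3 and 5 the median of the members was 0.02, the sign of the difference turned in 22 of them, 19 of 49 lay below 0 and Psmf1 was again the riser, where 2.52% of all genes rose and 1.02% fell.

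**Figure D1:**
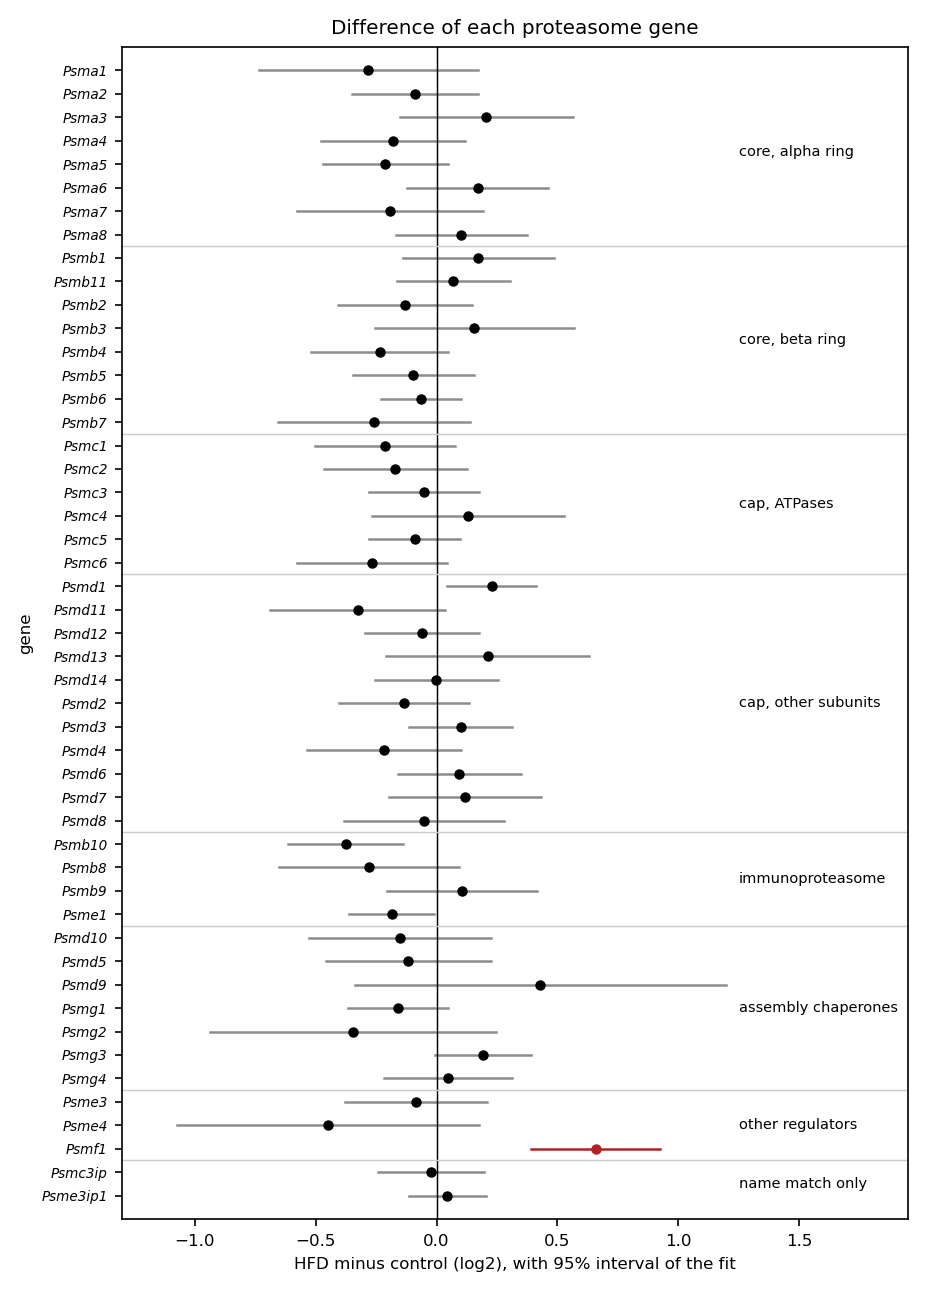
Difference of each of the 49 proteasome genes, HFD minus control on the log2 scale (x axis), by class (y axis), as points with the 95% interval of the limma fit. Psmf1, in red at 0.66, is the member past the threshold, and the other points lie between -0.45 and 0.43.

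Psmf1 stood at 0.32, 0.12, 0.44, 0.11 and 0.53 in the 5 HFD arrays, against -0.47, -0.49, -0.34 and -0.11 in the 4 control arrays. Every HFD array lay above every control array, and the mean was 0.30 ± 0.19 (SD, n = 5) in HFD and -0.35 ± 0.18 (SD, n = 4) in control. The difference was 0.66 ± 0.12 (95% interval 0.39 to 0.92), a 1.58-fold rise with an adjusted p of 0.0125 in limma. The protein binds the ends of the core and blocks it in vitro, and is also known, in fly and mouse neurons, to link proteasomes to transport along axons.

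Psmf1 has 4 probe sets, which did not read alike. Taken on their own, 1424370_s_at, which stands for the gene above, and 1424369_at both rose, by 0.66 ± 0.12 and 0.65 ± 0.11. Probe set 1424369_at read 0.47, 0.46, 0.17, 0.60 and 0.14 in HFD, against -0.22, -0.35, -0.41 and -0.14 in control. HFD replicates 3 and 5 were the lowest HFD arrays in that probe set and the highest in 1424370_s_at, and in both every HFD array lay above the controls. The other probe sets did not pass, 1424371_at at 0.21 ± 0.10 (adjusted p = 0.332) and 1451337_at at 0.05 ± 0.12 (adjusted p = 0.874), and their groups overlapped. With all probe sets averaged the difference was 0.39 (adjusted p = 0.00752), and 3.15% of all genes rose. Among all single probe sets 2.53% rose. Without HFD replicates 3 and 5 Psmf1 differed by 0.54 (adjusted p = 0.0418), and without control replicate 2 by 0.61, which was not past the threshold (adjusted p = 0.0508).

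**Figure D2:**
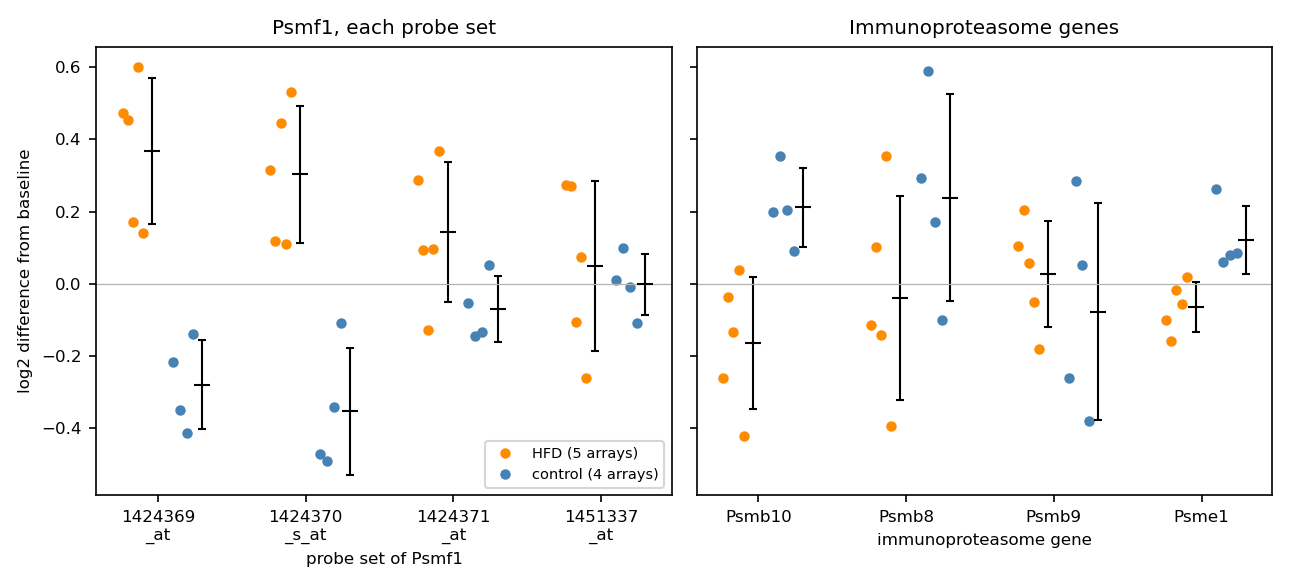
Log2 difference from baseline (y axis) in each HFD array (orange, 5) and control array (blue, 4), with mean and SD in black, for the 4 probe sets of Psmf1 (left) and the 4 measured immunoproteasome genes (right). HFD and control arrays are separate in 1424369_at and 1424370_s_at and in Psmb10 and Psme1, and overlap in the others.

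The 250 bases before the start of Psmf1 (RefSeq, GRCm38.p6, chr2:151741311-151741560, minus strand) are shown because it is the called member. Both strands were searched for TGACNNNGC (the core of the antioxidant response element, bound by Nfe2l2 and Nfe2l1), the core of the interferon-stimulated response element, TTCNNNGAA (gamma-activated sequence), CCGCCC (GC box) and CCAAT. No match was found in this window.
Psmf1: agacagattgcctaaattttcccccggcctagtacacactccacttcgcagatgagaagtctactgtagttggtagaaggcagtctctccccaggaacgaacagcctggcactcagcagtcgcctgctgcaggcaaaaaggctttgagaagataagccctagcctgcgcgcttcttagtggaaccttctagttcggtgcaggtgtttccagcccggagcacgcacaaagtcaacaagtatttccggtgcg

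The same search covered 44 promoters of the 41 members that the RefSeq table holds. GC boxes were in 22 of them (50%), against 32.7% of all 32851 promoters. CCAAT was in 16 (36.4%), against 33.8% of all, and TGACNNNGC in 5 (11.4%), against 10.2% of all. The core of the interferon-stimulated response element was in 3 (6.82%, against 2.98%), those of Psmb3, Psmd4 and Psmd9, and TTCNNNGAA in 2 (4.55%, against 7.02%), those of Psmb8 and Psmg1. No motif contains another, and each was counted on its own. A match describes letters in the window and says nothing of binding.

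Of the 4 measured immunoproteasome genes none passed the threshold. Their median difference was -0.23, or -0.18 without HFD replicates 3 and 5, and 3 lay below 0 in either setting. Psmb10, the subunit that replaces Psmb7, had the lowest adjusted p of them. Psmb10 read -0.26, -0.04, -0.13, 0.04 and -0.42 in HFD, against 0.20, 0.35, 0.21 and 0.09 in control, and every HFD array lay below every control array. Its difference was -0.38 ± 0.11 (95% interval -0.61 to -0.14, adjusted p = 0.0759 in limma). Of the 20 alternatives run for it, 18 gave no call, among them -0.30 without HFD replicates 3 and 5 (adjusted p = 0.169) and -0.33 without control replicate 2 (adjusted p = 0.213, the highest of all). It passed under array weights (-0.36, adjusted p = 0.0495) and without HFD replicate 4 (-0.43, adjusted p = 0.0492).

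Psme1, a subunit of the cap without ATPases, stood at -0.10, -0.16, -0.02, -0.06 and 0.02 in HFD, against 0.26, 0.06, 0.08 and 0.09 in control. The groups did not overlap, although HFD replicate 5 came near the lowest control, and the difference of -0.19 ± 0.08 did not pass (adjusted p = 0.235). Psmb8, which replaces Psmb5, stood at -0.11, 0.10, -0.14, 0.35 and -0.40 in HFD, against 0.29, 0.59, 0.17 and -0.10 in control. Here the groups overlapped widely, with HFD replicate 4 above 3 of the controls, and the difference was -0.28 ± 0.17 (adjusted p = 0.419), or -0.09 with both of its probe sets averaged and -0.13 without HFD replicates 3 and 5. Psmb9, which replaces Psmb6, stood at 0.10, 0.20, 0.06, -0.05 and -0.18 in HFD, against -0.26, 0.28, 0.05 and -0.38 in control. It was the immunoproteasome gene above 0, at 0.10 ± 0.14 (adjusted p = 0.751) or 0.16 without those arrays, and control replicates held both its highest and its lowest value.

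Psmb8 and Psmb9 lie in the MHC region of chromosome 17, beside Tap1 and Tap2, which encode the transporter that carries the peptides into the endoplasmic reticulum. Psmb9 and Tap1 start 226 bases apart on opposite strands, and Psmb8 lies between Tap1 and Tap2. Tap1 differed by 0.07 ± 0.12 (adjusted p = 0.816) and Tap2 by 0.09 ± 0.17 (adjusted p = 0.834), with overlapping groups. The upstream windows of the inducible catalytic subunits are shown with matches in capitals (RefSeq, GRCm38.p6). That of Psmb10 is chr8:105938393-105938642, minus strand, and holds no match. That of Psmb9 is chr17:34187331-34187580, minus strand. It holds the reverse complement of the GC box 55 bases and the reverse complement of CCAAT 8 bases before the start. That of Psmb8 is chr17:34197945-34198194, plus strand, with a gamma-activated sequence 97 bases before the start.
Psmb10: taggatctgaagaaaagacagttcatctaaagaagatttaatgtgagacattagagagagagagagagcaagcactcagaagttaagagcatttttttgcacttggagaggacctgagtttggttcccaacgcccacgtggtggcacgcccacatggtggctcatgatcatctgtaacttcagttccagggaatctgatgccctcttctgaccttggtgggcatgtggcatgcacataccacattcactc
Psmb9: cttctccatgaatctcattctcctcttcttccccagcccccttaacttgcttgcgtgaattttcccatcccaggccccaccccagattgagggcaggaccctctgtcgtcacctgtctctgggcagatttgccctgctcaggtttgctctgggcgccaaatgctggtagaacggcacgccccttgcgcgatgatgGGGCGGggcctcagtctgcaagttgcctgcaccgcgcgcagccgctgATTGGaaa
Psmb8: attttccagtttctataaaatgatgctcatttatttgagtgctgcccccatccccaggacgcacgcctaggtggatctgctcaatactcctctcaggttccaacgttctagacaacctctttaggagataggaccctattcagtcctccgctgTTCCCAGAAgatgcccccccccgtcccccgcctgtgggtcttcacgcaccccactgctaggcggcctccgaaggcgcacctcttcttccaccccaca

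Each inducible subunit takes the place of a constitutive one, so that their difference within an array gives 1 value per array. These 3 pairs were compared by an exact permutation test that took every split of the arrays, two-sided, with a smallest possible p of 0.00794. Psmb8 minus Psmb5 averaged 0.03 ± 0.10 (SD, n = 5) in HFD and 0.21 ± 0.24 (SD, n = 4) in control, a difference of -0.18 (exact p = 0.151). The direction turned with probe sets averaged, at 0.0031 (exact permutation, p = 0.968 adjusted over the pairs). Psmb9 minus Psmb6 averaged 0.06 ± 0.20 (SD, n = 5) in HFD and -0.11 ± 0.29 (SD, n = 4) in control, a difference of 0.17 (exact p = 0.333). No pair differed beyond the spread of the arrays, and adjusted over the 3 pairs each exact p was 0.452.

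The pair of Psmb10 split the HFD group. Psmb10 minus Psmb7 was -0.24, -0.06, 0.35, -0.13 and 0.36 in HFD, against 0.08, 0.29, 0.18 and 0.15 in control, a difference of -0.12 (exact p = 0.452). HFD replicates 3 and 5 lay above all controls and the other 3 HFD arrays below them. Without these 2 arrays the difference was -0.32 (exact permutation, p = 0.0857 adjusted over the pairs). The arrays left out were those above the controls, so that full separation of the rest was fixed by the choice. Fewer arrays also allow fewer splits, which raises the smallest possible p. No conclusion is drawn from this p.

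Markers of immune cells are given beside the immunoproteasome genes, which many leukocytes express. The mean of the 4 immunoproteasome genes was -0.09, 0.03, -0.06, 0.07 and -0.25 in HFD, against 0.12, 0.32, 0.13 and -0.08 in control. Kupffer cell markers fell in 11 of 15 measured genes, with none higher, where 1.87% of all genes fell. Their median was -1.43, or -1.18 without HFD replicates 3 and 5. Their array means ran from -1.39 to 0.14 in HFD and from 0.17 to 1.34 in control, with no overlap. The 6 with the lowest p were Timd4, a receptor of resident Kupffer cells (-1.16 ± 0.20), Folr2 (-1.25 ± 0.22), Cd163, the haemoglobin scavenger receptor (-1.92 ± 0.35), Lyz2, lysozyme (-1.62 ± 0.30), Vsig4, a complement receptor (-1.89 ± 0.38), and C1qc (-1.72 ± 0.37). General leukocyte markers fell in 3 of 8 (Cd53, Rac2 and Lcp1), with none higher. Their median was -0.57, or -0.56 without HFD replicates 3 and 5. Their array means were -0.71 to 0.04 in HFD against -0.01 to 0.58 in control. HFD replicate 5 was the lowest array and control replicate 2 the highest in the means of the immunoproteasome genes, the Kupffer markers and the leukocyte markers. HFD replicate 5 was also the lowest in the means of the assembly chaperones (-0.25), other regulators (-0.20), beta ring (-0.12) and all genes (-0.03). The same held for MHC class I presentation (-0.36), the interferon gamma response (-0.45), endothelial markers (-1.13) and cholangiocyte markers (-0.19). It also held for the genes tied to the proteasome under other names (-0.24). In core and cap together it was not the lowest, at -0.14 against -0.19 in HFD replicate 3. Nor was it in the alpha ring, either part of the cap, ubiquitin genes or markers of T and NK, B, hepatocyte and stellate cells. HFD replicate 2 stood at -0.75 in the Kupffer markers but at 0.03 in the immunoproteasome genes. Since values are centred, no marker can be called absent, and the part of these cells in the values of Psmb10, Psmb8 and Psme1 was not tested.

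None of 12 markers of T and NK cells and none of 8 of B cells passed, with medians of -0.06 and -0.0083, the second -0.09 without HFD replicates 3 and 5. Of 19 measured genes of the interferon gamma response, which drives the immunoproteasome, 2 fell and none rose. Over all genes 1.87% fell and 3.37% rose. The median of the 19 was -0.20 with 15 below 0. Without HFD replicates 3 and 5 it was -0.16 with 11 below 0. Ifi47 fell by 1.08 ± 0.19 (adjusted p = 0.0102) and Igtp fell by 0.40 ± 0.10 (adjusted p = 0.0469), both of them GTPases induced by interferon. In MHC class I presentation 0 of 13 measured genes passed, with 10 below 0 and a median of -0.21, or -0.04 without HFD replicates 3 and 5. The lowest p-values in that list were those of H2-D1 (-0.36 ± 0.17, adjusted p = 0.280) and H2-K1 (-0.32 ± 0.15, adjusted p = 0.290), heavy chains of the class I molecule.

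**Figure D3:**
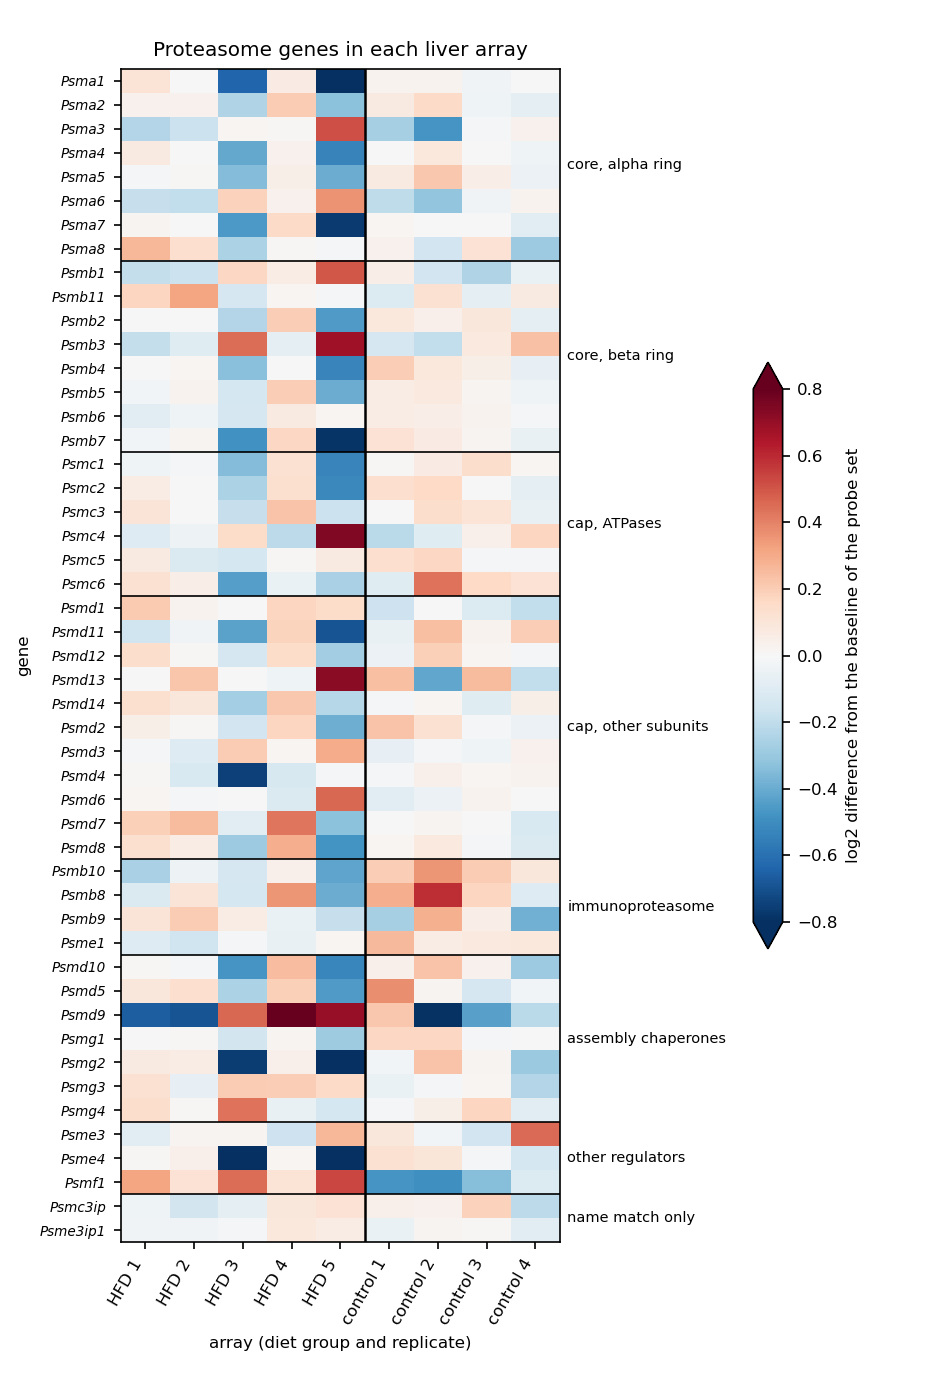
Log2 difference from baseline (colour) of each of the 49 proteasome genes (rows, by class) in the 5 HFD arrays and the 4 control arrays (columns). HFD replicates 3 and 5 carry most of the strong colours, blue in most core and cap genes and red in others such as Psmb3 and Psmc4. Each gene is shown by its probe set with the largest SD over the arrays, which favours such swings.

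None of the 8 alpha ring genes (Psma1 to Psma8) passed the threshold. Their median difference was -0.13, or 0.05 without HFD replicates 3 and 5, 5 lay below 0, and they ran from -0.28 to 0.21. Psma1 was the lowest and read 0.11, 0.00069, -0.64, 0.06 and -0.92 in HFD, against 0.03, 0.03, -0.03 and -0.00069 in control. The low values were those of HFD replicates 3 and 5, and each of the other 3 HFD arrays lay above at least 2 controls. The difference was -0.28 ± 0.21 (adjusted p = 0.513), 0.05 without those 2 arrays and -0.10 with its 4 probe sets averaged. Psma3, the highest, read -0.23, -0.17, 0.02, 0.0077 and 0.52 in HFD, against -0.27, -0.47, -0.0077 and 0.03 in control. It was HFD replicate 5 that lay above the rest, and the difference was 0.21 ± 0.16 (adjusted p = 0.551), or 0.05 without both arrays and 0.08 with its probe sets averaged. The mean of the alpha ring was -0.27 in HFD replicate 3, -0.26 in HFD replicate 5, -0.02 to 0.07 in the other HFD arrays and -0.06 to 0.01 in control. Psma8, an alpha subunit of the testis, differed by 0.10 ± 0.12, and by 0.21 without both arrays.

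The 8 beta ring genes outside the immunoproteasome (Psmb1 to Psmb7 and Psmb11) had no member past the threshold either, with 5 below 0 and a median of -0.08, or 0.0093 without HFD replicates 3 and 5. Psmb7, the trypsin-like subunit, was the lowest. It read -0.02, 0.02, -0.49, 0.17 and -0.79 in HFD, against 0.12, 0.06, 0.02 and -0.06 in control, and the low values were again those of HFD replicates 3 and 5. Its difference was -0.26 ± 0.18 (adjusted p = 0.495), and 0.02 without both. Psmb5, the chymotrypsin-like subunit that proteasome inhibitor drugs bind, read -0.02, 0.03, -0.14, 0.20 and -0.39 in HFD, against 0.06, 0.08, 0.02 and -0.03 in control. The HFD arrays surrounded the controls, and the difference was -0.10 ± 0.11 (adjusted p = 0.705), or 0.04 without HFD replicates 3 and 5.

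Psmb6, the caspase-like subunit, varied least of the constitutive catalytic subunits. It read -0.09, -0.03, -0.13, 0.07 and 0.02 in HFD, against 0.06, 0.05, 0.03 and -0.02 in control, a difference of -0.06 ± 0.08 (adjusted p = 0.706, 95% interval -0.23 to 0.10). Psmb1, a structural subunit of the ring, was the highest. It read -0.19, -0.17, 0.16, 0.06 and 0.50 in HFD, against 0.06, -0.15, -0.24 and -0.06 in control, a difference of 0.17 ± 0.14 (adjusted p = 0.573). HFD replicate 5 led the rest, and the difference was -0.00098 without HFD replicates 3 and 5 and 0.04 with its probe sets averaged. Psmb11, which is known from cortical cells of the thymus and neighbours Psmb5 on chromosome 14, differed by 0.07 ± 0.11, and by 0.17 without both arrays.

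Of the 6 ATPases of the cap none passed, 5 lay below 0 and the median was -0.13, or -0.05 without HFD replicates 3 and 5. Psmc6 was the lowest and read 0.12, 0.05, -0.44, -0.05 and -0.26 in HFD, against -0.10, 0.43, 0.16 and 0.12 in control. Its groups overlapped, with control replicate 2 at the top and HFD replicate 3 at the bottom, and the difference was -0.27 ± 0.14 (adjusted p = 0.341). It was -0.11 without HFD replicates 3 and 5 and -0.14 with its 3 probe sets averaged. Psmc4, the highest, read -0.10, -0.04, 0.15, -0.21 and 0.74 in HFD, against -0.21, -0.10, 0.04 and 0.17 in control. Its difference of 0.13 ± 0.18 (adjusted p = 0.756) rested on HFD replicate 5, without which it was -0.03, and it was 0.07 with its probe sets averaged.

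Among the 11 other cap subunits none passed, 6 lay below 0 and the median was -0.0014, or 0.06 without HFD replicates 3 and 5. Psmd1, a large scaffold of the base of the cap, was the highest. It read 0.21, 0.03, -0.0046, 0.17 and 0.15 in HFD, against -0.17, 0.0046, -0.11 and -0.20 in control. The groups overlapped only where HFD replicate 3 lay just below control replicate 2, and the difference of 0.23 ± 0.08 (95% interval 0.04 to 0.41) did not pass over all genes (adjusted p = 0.157). It kept its size without HFD replicates 3 and 5, at 0.25. Psmd11, a lid subunit that holds the cap together, was the lowest and read -0.16, -0.03, -0.43, 0.18 and -0.69 in HFD, against -0.06, 0.24, 0.03 and 0.20 in control. Most of the difference of -0.33 ± 0.16 (adjusted p = 0.320) again lay in HFD replicates 3 and 5, and it was -0.10 without them. Psmd11 has 8 probe sets, the most of any member, and their average gave -0.0041. Psmd4, a ubiquitin receptor, differed by -0.22 ± 0.14, with HFD replicate 3 the lowest array at -0.74, and by -0.10 without HFD replicates 3 and 5. Its probe set 1418874_a_at differed by 0.22 ± 0.07, with every HFD array above every control array, and did not pass (adjusted p = 0.141 in limma). Probe set 1425859_a_at differed by 0.0057, and the average of all 3 was 0.0013. Psmd14, the deubiquitinase of the lid, differed by -0.0014 ± 0.11, and by 0.16 without both arrays.

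Core and cap together held 33 genes, none of them called, with 21 below 0 and a median of -0.06. Without HFD replicates 3 and 5 the same genes had 13 below 0 and a median of 0.02. HFD replicate 5 was the lowest of the 9 arrays in 16 of the 33 genes (48.5%), against 21.5% of all genes. HFD replicate 3 was the lowest in 7 (21.2%), against 11.9% of all genes. The highest array was HFD replicate 5 in 8 of the 33 genes, against 16.4% of all genes. It was HFD replicate 4 in 10, against 10.9% of all genes, and HFD replicate 3 in 0, against 12.5%. Each gene was read from its probe set with the largest SD over the arrays, which favours probe sets that swing in HFD replicates 3 and 5. As HFD replicates 3 and 5 lie in the HFD group, what sets them apart and the diet cannot be told apart in these values.

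**Figure D4:**
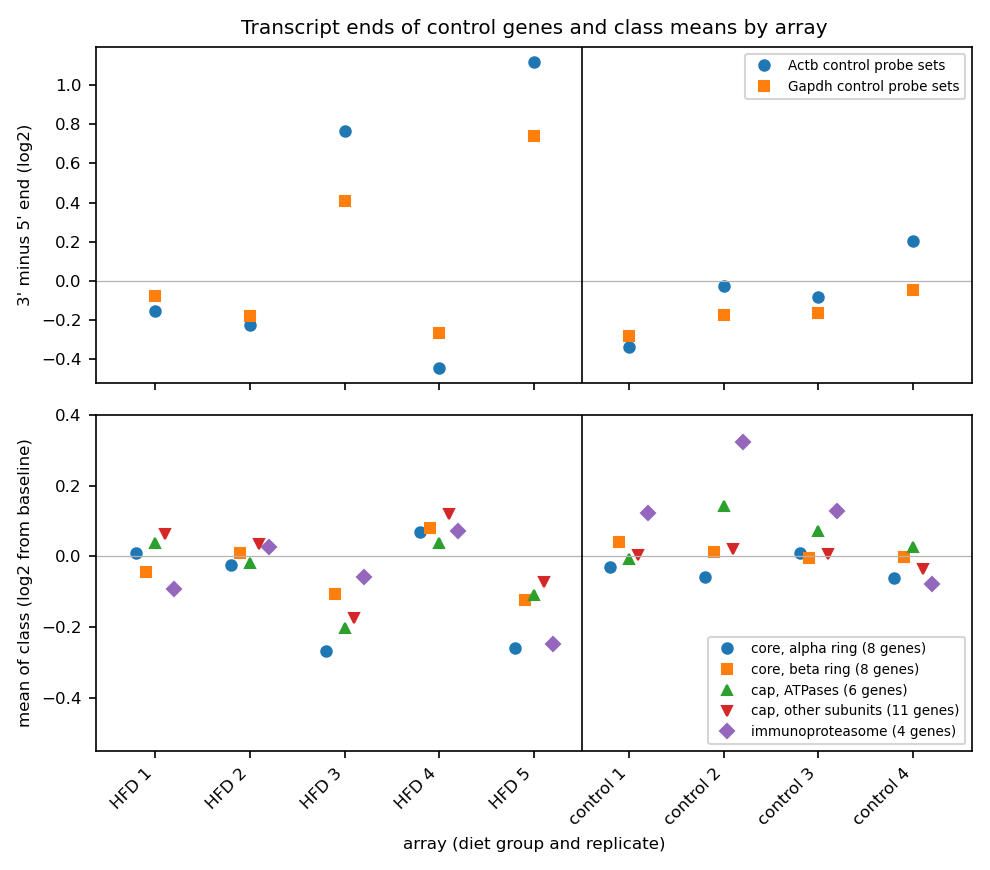
Top, 3′ minus 5′ difference (log2) of the Actb and Gapdh control probe sets in each array. Bottom, mean log2 difference from baseline of each class of proteasome gene in the same arrays, HFD on the left and control on the right. HFD replicates 3 and 5 are the highest 2 arrays in the top panel and the lowest 2 in the alpha ring, at -0.27 and -0.26.

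Several probe sets of the same member often went apart in these arrays. Of the 27 members with several probe sets, 20 had differences of both signs and 7 of 1 sign. The median range between probe sets of a member was 0.669 in HFD replicate 5 and 0.395 in HFD replicate 3, against 0.118 to 0.281 in the other arrays. In HFD replicate 5 the probe sets of Psmb3 read 0.68 and -0.28 and those of Psmc4 0.74 and -0.02. The 6 probe sets of Psme4 ran from -1.41 to 0.26 there. For 22 members a single probe set was available, and no such comparison could be made.

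The assembly chaperones, which join the rings and cap and leave the finished proteasome, had 0 of 7 members past the threshold, with 4 below 0 and a median of -0.12, or 0.08 without HFD replicates 3 and 5. Psmg2, a partner of Psmg1 in building the alpha ring, was the lowest. It read 0.07, 0.06, -0.76, 0.04 and -1.23 in HFD, against -0.02, 0.23, 0.02 and -0.30 in control. Below every other array lay HFD replicates 3 and 5, and the difference of -0.35 ± 0.27 (adjusted p = 0.544) was 0.08 without them. Psmd9, a chaperone of the ATPase ring, was the highest and read -0.66, -0.69, 0.46, 0.81 and 0.70 in HFD, against 0.21, -0.79, -0.44 and -0.21 in control. Both groups held high and low arrays, and its difference of 0.43 ± 0.35 had the widest interval of all members (-0.34 to 1.2, adjusted p = 0.564). Without HFD replicates 3 and 5 it was 0.13, and with its 3 probe sets averaged 0.16. The others were Psmd5, Psmd10, Psmg1, Psmg3 and Psmg4, between -0.16 and 0.19.

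Besides Psmf1, the other regulators did not pass. Psme4, which encodes PA200, a large nuclear activator, read 0.01, 0.04, -0.82, 0.01 and -1.41 in HFD, against 0.12, 0.10, -0.01 and -0.14 in control. HFD replicates 3 and 5 were again the lowest arrays, and that of replicate 5 was the lowest value of any member. The difference was -0.45 ± 0.28 (adjusted p = 0.439), 0.0049 without both arrays and -0.02 with its 6 probe sets averaged. Psme3, the nuclear relative of Psme1, differed by -0.08 ± 0.13, and by -0.17 without both arrays. Of the members given apart, Psmc3ip differed by -0.02 ± 0.10 and Psme3ip1 by 0.04 ± 0.07.

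Psmc3ip read -0.04, -0.15, -0.08, 0.09 and 0.12 in HFD, against 0.04, 0.04, 0.19 and -0.21 in control. Psme3ip1 read -0.03, -0.03, -0.0074, 0.08 and 0.06 in HFD, against -0.06, 0.02, 0.0074 and -0.09 in control. In both genes the HFD arrays lay within or near the range of the controls.

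Genes tied to the proteasome under other names were read from a list of 11 measured genes. It holds, among others, deubiquitinases of the cap, assembly factors and the transcription factors Nfe2l1 and Nfe2l2. None passed, 5 of the 11 lay below 0 and the median was 0.01, or 0.16 without HFD replicates 3 and 5. Groups without overlap were seen in 1 gene higher in HFD and 1 lower (5.62% and 4.2% of all genes). Nfe2l2, the transcription factor of the antioxidant response, which raises proteasome genes under oxidative stress, read 0.20, 0.48, 0.92, 0.53 and -0.17 in HFD, against 0.17, -0.41, -1.15 and -1.01 in control. HFD replicate 5 lay below control replicate 1, and the difference was 0.99 ± 0.28 (adjusted p = 0.0726 in limma). Ecpas, a scaffold that binds the cap and core, read 0.07, 0.38, 0.21, 0.17 and 0.11 in HFD, against -0.10, -0.10, -0.07 and -0.18 in control, with no overlap and a difference of 0.30 ± 0.08 (adjusted p = 0.0727).

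Of 14 measured genes of ubiquitin activation and delivery to the proteasome, 0 passed, with a median of 0.10, or 0.07 without HFD replicates 3 and 5. Rad23b, a shuttle that carries ubiquitinated proteins to the cap, read 0.50, 0.79, 0.43, -0.08 and 0.47 in HFD, against -0.47, -0.25, -0.19 and 0.08 in control. HFD replicate 4 lay among the controls, and the difference was 0.63 ± 0.17 (adjusted p = 0.0572). Faf2, a recruiter of the unfoldase Vcp to the endoplasmic reticulum and lipid droplets, differed by 0.24 ± 0.10 (adjusted p = 0.226).

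Other cells of the liver were read from lists of markers, where 3.37% of all genes rose and 1.87% fell. Of 11 hepatocyte markers 7 lay below 0, with a median of -0.06 and a lowest difference of -1.41, and none of these passed. Fah, which encodes the last enzyme of tyrosine breakdown, rose by 0.30 ± 0.07. Endothelial markers fell in 3 of 12, namely Fcgr2b (-2.0 ± 0.44), Stab1 (-0.82 ± 0.20) and Flt4 (-1.03 ± 0.25). All 12 lay below 0, with a median of -0.84, or -0.65 without HFD replicates 3 and 5. Their array means ran from -1.13 to 0.18 in HFD and from 0.16 to 0.63 in control. Stellate cell markers had Lrat higher (0.71 ± 0.17) and Reln lower (-0.53 ± 0.13) of 9, and none of 4 cholangiocyte markers passed. The part of these cells in the values of Psmf1 was not tested.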

How the data were processed

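Per the series' design text and the submitters' processing notes, the authors summarised the Affymetrix probe intensities with RMA (version not given in the sources used here), quantile normalized the arrays and subtracted from each probe set its median across the samples. The deposited values were read as log2 differences from that median, called the baseline here, since RMA returns log2, although the log base is not stated in the sources used here. Centring removes levels, so that no filter on weak signal was possible.

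Of 41842 probe sets, 60 control probe sets, 862 with several gene symbols and 8119 with none were left out, names being those of the platform annotation. The remaining 32801 gave 17514 genes, and for the 8404 genes with several probe sets the one with the largest SD over the 9 arrays stood for the gene, which favours variable probe sets. HFD (5 arrays) and control (4 arrays) were compared with no covariate by eBayes after lmFit (limma 3.58.1, R 4.3.3), two-sided, at a threshold of 0.05 on p-values adjusted over all genes by Benjamini-Hochberg, after a check on simulated data. The members, the classes and the 12 gene and marker lists were chosen with earlier results of these data known. Values per array are given for members past the threshold, the immunoproteasome genes and their constitutive counterparts, and the highest and lowest member of each class. Of each list up to 6 genes past the threshold, or otherwise the 2 with the lowest p, are named. Tap1 and Tap2 were named in addition as neighbours of Psmb8 and Psmb9, and Psma8, Psmb3, Psmb11, Psmd4, Psmd14 and Psme3 after their values were seen. Replicates were numbered in order of deposition and pair no arrays. Promoters are the RefSeq windows on GRCm38.p6. Alternatives were other thresholds and scalings, other choices of probe sets, robust and unmoderated tests, array weights, and leaving out arrays.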

Additional observations from a re-analysis of the deposited data

Results flagged for a closer look

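Among the 54 groups of arrays examined for a single distant array, 1 was picked out. Psme1, a subunit of the proteasome cap without ATPases, stood at 0.26 in control replicate 1, whereas the other control arrays lay between 0.06 and 0.09, a gap of 0.869 of the group's range. Chance picks out about 1 in 20 such groups. Without control replicate 1 the difference of Psme1 was -0.14 (adjusted p = 0.459 in limma), against -0.19 with all arrays (adjusted p = 0.235). The groups still did not overlap, which was fixed in advance, since that array was the control farthest from the HFD arrays.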

How the results depend on the processing

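Psmf1 was the riser in the count of 1, and 0 members rose at an adjusted p under 0.01 or with an unmoderated test (adjusted p = 0.0506). Leaving out 1 array at a time gave 0 to 1 risers, with 0 without control replicate 2. Over all alternatives Psmf1 differed by 0.39 to 0.74 (adjusted p 0.00607 to 0.0508). No member fell in the main comparison, and 1, Psmb10, fell under array weights. Leaving out 1 array at a time gave 0 to 1, with 1 without HFD replicate 4. Psmb10 ran from -0.43 to -0.30. Averaging probe sets turned the difference of the pair Psmb8 minus Psmb5 to 0.0031. Leaving out 1 array at a time moved that pair over -0.27 to -0.08, Psmb9 minus Psmb6 over 0.08 to 0.28 and Psmb10 minus Psmb7 over -0.19 to -0.05.

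Without HFD replicates 3 and 5 together the sign of the difference turned in 22 of the 49 members, 18 of them among the 33 core and cap genes. Of the 20 members with values per array it turned in 7, namely Psma1 (0.0514), Psmb1 (-0.000985), Psmb5 (0.0358), Psmb7 (0.0196), Psmc4 (-0.0937), Psmg2 (0.0753) and Psme4 (0.0049), none of them called in either setting. Psmc4 was also -0.0914 without HFD replicate 5 and control replicate 1. Leaving out 1 array at a time gave Psmc4 -0.0280 to 0.21, with the turn at HFD replicate 5, and Psmc3ip -0.10 to 0.0350, with the turn at HFD replicate 2 (0.0110) and control replicate 3. The cause of these turns was not tested. Over all genes 590 rose and 327 fell. The counts were 166 and 79 at an adjusted p under 0.01 and 251 and 115 with the unmoderated test, and 375 rose by at least 1.5-fold. Leaving out 1 array gave 262 to 589 higher and 123 to 407 lower, and 179 fell without HFD replicates 3 and 5.

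No paired analysis was possible because replicate numbers follow the order of deposition and pair no arrays. The arrays carry no batch label, levels cannot be read from centred values, and probe sets near the detection limit could not be set aside.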
